A study of Mus musculus with 2 samples.

Results

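The transcripts described here are the well-expressed long intergenic noncoding RNAs (lincRNAs) of mouse embryonic stem cells, apart from the Platr group and 4 imprinted transcripts. They were chosen by 2 things, their class and their counts. A row of the gene table had to carry the gene type lincRNA in GENCODE release vM21 (mouse build GRCm38), and it had to hold at least 200 raw counts in both libraries. Symbols starting with Platr and the imprinted H19, Meg3, Rian and Mirg were left out, of which Rian is a processed transcript in vM21 and would not have entered. This gave 42 members among 3401 lincRNA rows and 46983 rows in all. Since both counts were used to choose them, the difference between the libraries is given for these 42 as a description, with no test.

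The table came from RNA sequencing of the mouse embryonic stem cell line 46C, in which green fluorescent protein is expressed from the Sox1 locus. Cells of both groups grew on feeder cells in medium with serum and leukaemia inhibitory factor, and both had received a short hairpin RNA by virus in the pLKO.1-TRC vector, followed by puromycin and the picking of stably infected clones. The knockdown group carried a hairpin against the transcript linc1557 and the control group a control hairpin. Each group had 1 library, with 26693282 counts for the knockdown and 23146210 for the control, so no spread between cultures or clones could be measured and no p-value is given. No row was matched to linc1557, and its level was not analysed here. Markers of the labelled cell type were present in both libraries, and 8 of 8 differed by less than 2-fold (summed level 2630 CPM, counts scaled to library size, in the knockdown and 1958 in the control). Of 25 fibroblast markers that feeder cells express, none was at 0 in either library, 17 were lower by at least 2-fold in the knockdown and none was higher (summed level 1689 against 3035 CPM). Lineage markers differed too. All 5 endoderm markers at 1 CPM or more were lower by 2-fold (summed level 1.717 against 64.9 CPM), as were 6 of 7 primitive streak and mesoderm markers with 1 higher (7.533 against 95.38 CPM). Of 4 neuroectoderm markers 1 was higher and 2 were lower (48.67 against 130.7 CPM), and of 6 macrophage markers 1 was higher and 3 were lower (33.96 against 40.27 CPM). No endoderm, streak or neuroectoderm marker was at 0 in either library, and 1 macrophage marker was at 0 in the control. The part of such differences in the members' values was not tested. In bulk RNA, fewer cells of a type and less RNA per cell cannot be told apart.

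LincRNAs are transcribed by RNA polymerase II outside protein-coding genes, and most are capped and spliced like messenger RNAs but carry no long conserved reading frame. Some act in the nucleus, as Xist does when it coats an X chromosome and silences it, or Neat1 when it builds the nuclear bodies called paraspeckles. Others are mainly carriers of small nucleolar RNAs or microRNAs that are cut from their introns or exons, or act in the cytoplasm by binding proteins or microRNAs.

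Within the members, a few rows held nearly all counts. The 42 rows took 6.303% (95% Wilson interval 6.294 to 6.312) of the knockdown counts and 5.692% (5.683 to 5.701) of the control counts. AY036118, Gm26917 and Gm42418, which lie in a copy of the ribosomal DNA on chromosome 17, made up 90.25% of the members' counts in the knockdown library and 88.64% in the control one. Malat1 added 7.323% and 8.77%. The other 38 members together held 40810 and 34110 counts, or 0.1529% (0.1514 to 0.1544) and 0.1474% (0.1458 to 0.1489) of the libraries. All but 4 of the members thus rest on a small share of the counts. AY036118 lies within a ribosomal RNA row on the same strand, and both rows hold counts. Whether a read entered by more than 1 row was not examined, so these are shares of counts and not of distinct reads. Intervals here cover counting error only, because each group had 1 library. They treat every count as independent, although reads copied from 1 molecule by PCR cannot be recognised in these counts. Where a pair of counts is given, the knockdown comes first.

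Levels between genes were compared as CPM per kilobase of the deposited gene length, with CPM scaled by trimmed mean of M-values (TMM). The members' mean over both libraries had a median of 11.23 CPM per kilobase, beside 8.351 for the 8408 protein-coding rows with the same count minimum, and ran from 1.247 for Gm37494 to 47674 for AY036118. The 8 highest were AY036118, Gm26917 (2472), Gm42418 (882), Malat1 (687), Gm42743 (109.3), Lncenc1 (46.5), Gm10076 (42.6) and Epb41l4aos (38.0). Of these, Malat1, Lncenc1 and Epb41l4aos are long noncoding RNAs in the RefSeq annotation. Gm10076 and Gm42418 are pseudogenes there, the latter under the name Rn18s-rs5. Gm42743 starts 31 bp from the histone gene Hist2h2bb and shares 226 exon bases with it on the same strand. Its 4135 and 4072 counts stood beside 4365 and 4360 for Hist2h2bb, and reads of the pair cannot be told apart. Xist and Ftx were near the bottom of the order, at 1.88 and 1.62 CPM per kilobase.

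**Figure D1:**
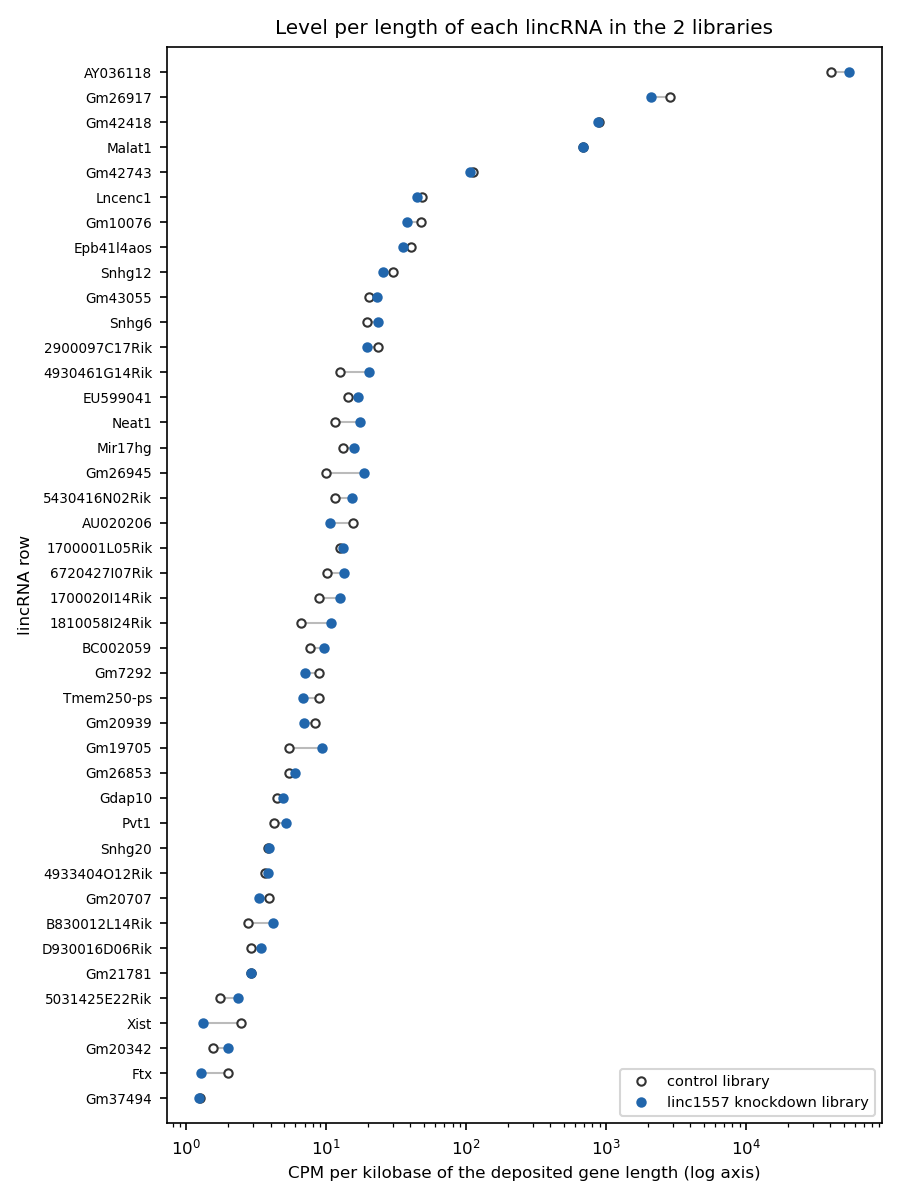
Level of each of the 42 lincRNAs in CPM per kilobase of deposited gene length (log axis), with the control library as an open circle and the linc1557 knockdown library as a filled circle, 1 library each. By their mean over both libraries the top 4 rows lie at 687 CPM per kilobase or more and the others at 109.3 or less. The 2 circles of each row lie less than 2-fold apart, while the means of the rows run from 1.247 to 47674. Rows next to each other in the order often lie closer than the 2 circles of a row.

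None of the 42 members differed by 2-fold or more between the libraries with a counting interval that excludes no change. With scaling by total counts 1 did, Xist. The intervals of 19 members lay above and those of 13 below no change, at smaller sizes. Among all 9012 rows with at least 200 counts in both libraries, 350 (3.88%) did, 104 higher in the knockdown (1.15%) and 246 lower (2.73%). Scaling by total counts changed that split to 70 higher and 330 lower. At 1.5-fold, 7 of the 42 members passed (16.7%) against 1315 of the 9012 rows (14.6%). Of the 7, 5 were higher in the knockdown, beside 6.64% of all rows, and 2 were lower, beside 7.96%. Other scalings gave 6 (total counts, 3 higher and 3 lower) or 8 members (DESeq2 size factors or TMM over protein-coding genes, 6 higher and 2 lower). The median log2 ratio of knockdown over control was 0.10, with quartiles of -0.23 and 0.39, beside a median of 0.05 and quartiles of -0.21 and 0.27 for all 9012 rows. Above 0 were 25 members (59.5%) and 55.2% of all rows. With scaling by total counts 21 members were above 0 and their median was -0.02. These shares and medians are near the background, and because the members were selected on both counts nothing is read from them.

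The rule itself bears on these counts. Before the named exceptions were taken out, 47 lincRNA rows had 200 counts in both libraries, and 1 of them, the imprinted H19, was lower by 2-fold (473 against 1235 counts, 2.77-fold lower, 2.49 to 3.09). A minimum in both libraries also leaves out rows that are high in 1 library and low in the other. There were 10 lincRNA rows that reached 200 counts in 1 library only. Of these, Halr1, a transcript beside the Hoxa cluster, had 960 counts in the knockdown against 141 in the control (6.41-fold higher, 5.37 to 7.70). C78283 had 431 and 194 counts (2.09-fold higher, 1.76 to 2.49). Miat, a nuclear lincRNA, had 60 and 224 counts (3.97-fold lower, 2.97 to 5.37). The other 7 differed by less than 2-fold. Just inside the minimum lay Snhg20 (216 and 202 counts), Gm19705 (372 and 203) and Gm20707 (212 and 236), and just outside it Gm14230 (194 and 228), C78283 and 2400006E01Rik (209 and 193).

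**Figure D2:**
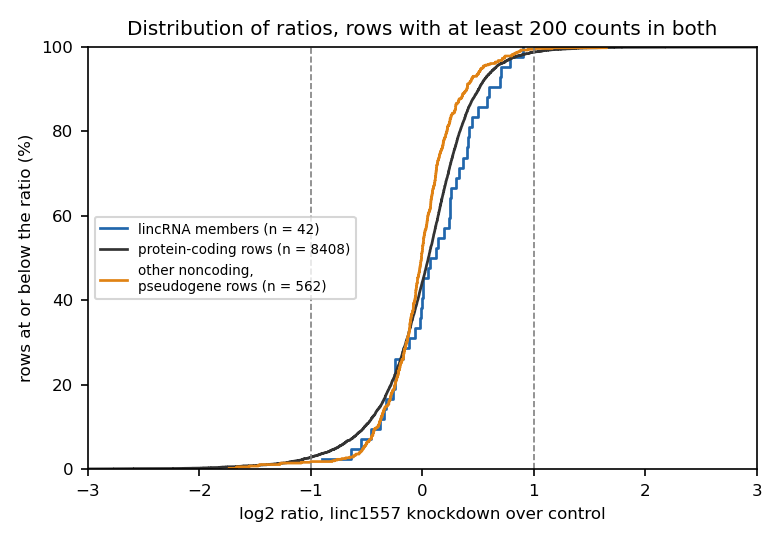
Cumulative share of rows (y axis, percent) at or below each log2 ratio of knockdown over control (x axis), for the 42 lincRNA members, the 8408 protein-coding rows and 562 other noncoding and pseudogene rows, all with at least 200 counts in both libraries. The dashed lines mark 2-fold, which no member reaches, while 236 protein-coding rows lie past it on the lower and 101 on the higher side.

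**Figure D3:**
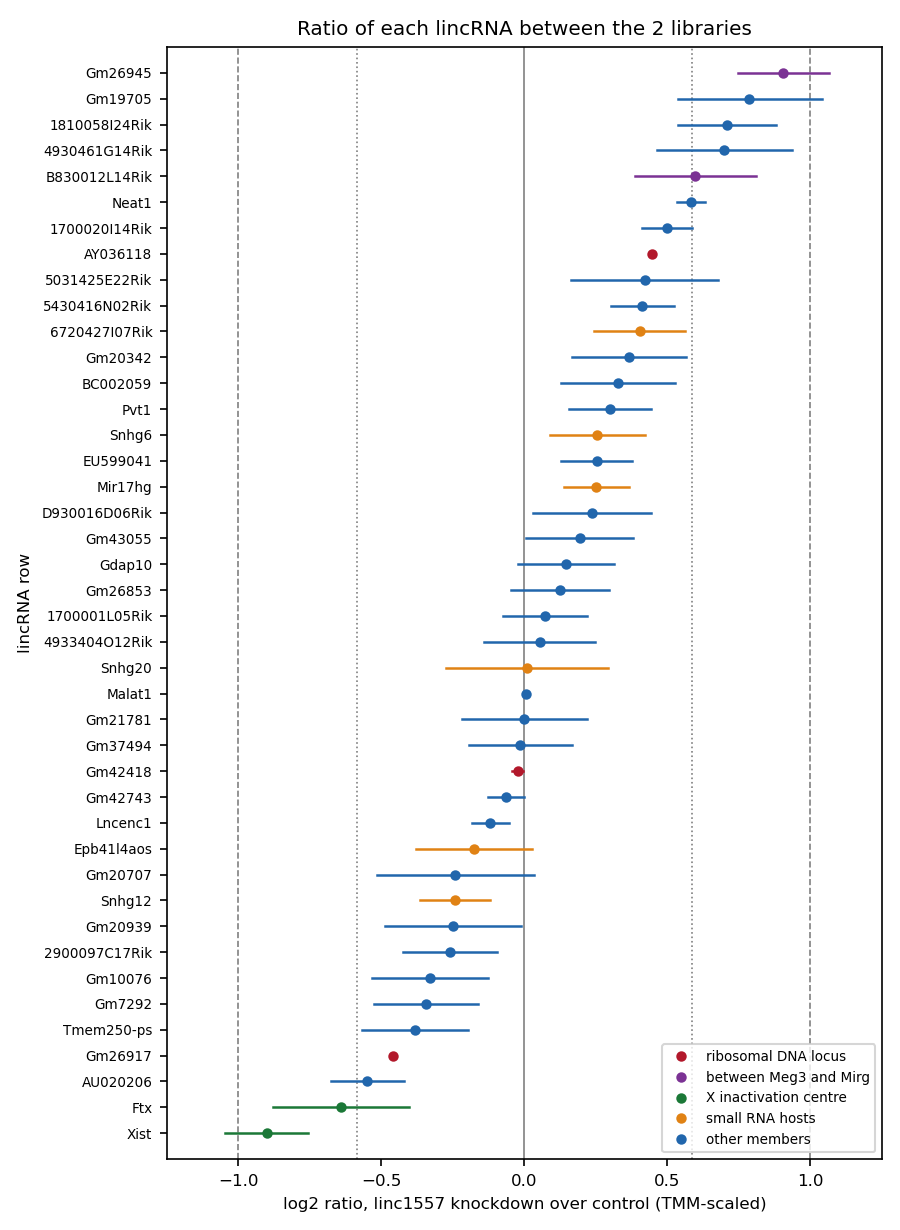
Log2 ratio of knockdown over control for each member (points) with its 95% counting interval (bars), 1 library per group, coloured by locus or role. Dotted lines mark 1.5-fold and dashed lines 2-fold; the members run from Xist at -0.90 to Gm26945 at 0.91, and 10 intervals include 0.

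The lowest ratios belonged to a pair of X-linked neighbours. Xist (ENSMUSG00000086503, chromosome X, 103460366 to 103483254, minus strand), the RNA that coats and silences the inactive X chromosome, had 603 knockdown and 1060 control counts. At 23.5 against 44.0 CPM it was 1.87-fold lower (1.69 to 2.07), with a log2 ratio of -0.90, or -1.02 with total counts, which is past 2-fold. Ftx (ENSMUSG00000086370, chromosome X, 103560907 to 103623790, minus strand), a noncoding RNA of the X inactivation centre described as an activator of Xist, had 246 and 361 counts and was 1.56-fold lower (1.32 to 1.84). These were the 2 members lower by 1.5-fold. Tsix, the antisense transcript that represses Xist, was the other way round, with 630 knockdown and 482 control counts (log2 ratio 0.30). Tsix shares 1980 exon bases with Xist on the opposite strand, and no strand setting was stated. Counts elsewhere did differ by strand. The 923 exon bases of AY036118 all lie in Gm42418 on the opposite strand, with 1299790 and 898898 counts against 41035 and 39261. Reads of the stretch shared by Xist and Tsix were not examined. Gm38020, an unconfirmed transcript that shares 633 exon bases with Ftx, had 127 and 203 counts (log2 ratio -0.76). Jpx, a further activator of Xist, had 7 and 19 counts, under 1 CPM in both libraries. Firre, an X-linked nuclear RNA outside the centre, had 1479 and 1799 counts (log2 ratio -0.37). Feeder markers were lower in the same library, as given above, and their part in the Xist and Ftx values was not tested. The proteins that bind Xist or act with it differed by less than 2-fold in 8 of 8 cases, among them Spen (1181 and 1302 counts), the silencing adaptor, and Hnrnpu (15205 and 13960), which holds Xist on chromatin.

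The Xist and Ftx promoters are shown because these genes had the lowest ratios, together with the 2 members higher by 1.5-fold whose RefSeq start lies within 100 bases of the GENCODE start. Each window runs from 250 bases before to 50 bases after the start (RefSeq, GRCm38.p6), 5′ to 3′ on the gene's strand, and capitals mark the letters of the motifs searched on both strands.
Xist (chrX:103483184-103483483, minus strand): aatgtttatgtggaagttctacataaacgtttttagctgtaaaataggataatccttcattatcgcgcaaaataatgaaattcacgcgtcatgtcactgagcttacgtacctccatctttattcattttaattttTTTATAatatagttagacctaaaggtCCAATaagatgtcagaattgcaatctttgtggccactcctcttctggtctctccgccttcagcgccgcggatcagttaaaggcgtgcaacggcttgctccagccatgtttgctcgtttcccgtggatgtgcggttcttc
Ftx (chrX:103623705-103624004, minus strand): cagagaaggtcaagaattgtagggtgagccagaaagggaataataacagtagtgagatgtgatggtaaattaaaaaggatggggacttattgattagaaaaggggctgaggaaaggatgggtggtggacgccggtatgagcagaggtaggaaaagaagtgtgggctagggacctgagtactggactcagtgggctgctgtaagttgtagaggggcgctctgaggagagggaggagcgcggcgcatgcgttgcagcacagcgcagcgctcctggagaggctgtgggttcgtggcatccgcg
4930461G14Rik (chr9:58454923-58455222, plus strand): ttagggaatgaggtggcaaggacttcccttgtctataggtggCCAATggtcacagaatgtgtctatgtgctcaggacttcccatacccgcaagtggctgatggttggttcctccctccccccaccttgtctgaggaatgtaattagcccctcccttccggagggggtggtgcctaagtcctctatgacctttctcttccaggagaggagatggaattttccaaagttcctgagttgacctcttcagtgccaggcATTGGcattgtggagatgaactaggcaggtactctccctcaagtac
1810058I24Rik (chr6:35252460-35252759, plus strand): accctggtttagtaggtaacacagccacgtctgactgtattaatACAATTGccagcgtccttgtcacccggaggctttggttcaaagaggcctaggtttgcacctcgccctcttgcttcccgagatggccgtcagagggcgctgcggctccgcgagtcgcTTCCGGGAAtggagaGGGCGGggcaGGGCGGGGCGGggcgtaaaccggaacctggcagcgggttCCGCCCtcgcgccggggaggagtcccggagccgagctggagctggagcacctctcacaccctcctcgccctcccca
The Xist window held a TATAAA and a CCAAT match, and the Ftx window none of the 8 motifs. That of 4930461G14Rik held 2 CCAAT matches. The window of 1810058I24Rik held 1 SOX motif, 1 STAT motif and 4 GC boxes, some of which overlap. A match is a description of letters and not a binding site.

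Of the 42 members 22 had a promoter in the RefSeq table and 15 had a start within 100 bases of the GENCODE start. In these 15, CCAAT was found in 9 (60%), beside 37.4% of 32851 promoters of the same length. The GC box GGGCGG was found in 5 (33.3%, beside 35.7%). The octamer ATGCAAAT, the POU factor motif, was found in 1 (6.67%, beside 1.74%), that of Gm20939. The SOX motif ACAATNG (8.09% of all promoters), the STAT motif TTCNNNGAA (8.3%), TATAAA (13.6%) and the E-box CACGTG (7.15%) were each found in 1. The AP-1 motif TGANTCA, present in 7.81% of all promoters, was found in none. The median GC content of the 15 windows was 52%, beside 52.67% for all. With 15 windows these shares are descriptions.

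The highest ratio came from the imprinted Meg3 domain of chromosome 12, although its named transcripts had been left out. Gm26945 (ENSMUSG00000098061, 109640341 to 109642351, plus strand), a single-exon row within the span of Rian, had 965 counts in the knockdown against 485 in the control. It was 1.87-fold higher (1.68 to 2.09). B830012L14Rik (ENSMUSG00000098202, 109695586 to 109702587, plus strand), which lies between Rian and Mirg, had 479 and 298 counts and was 1.51-fold higher (1.31 to 1.75). Both lie in a run of maternally expressed noncoding RNAs and small RNAs on the same strand. Of that interval from Meg3 to Mirg, 26 rows reached 1 CPM in either library, and all 26 had a log2 ratio above 0, from 0.23 to 1.17 with a median of 0.73. With total counts all 26 were still above 0, with 0.12 as the lowest. Meg3 itself had 9648 and 6637 counts (log2 ratio 0.45), Rian 17212 and 9701 (0.74) and Mirg 2331 and 1707 (0.36). Higher by 2-fold were 4 rows, all of them small nucleolar RNAs of the domain, and none was lower. Their counts were low, down to 27 and 12 for DQ267101. Of all 15850 rows at 1 CPM, 4.68% were higher and 9.48% lower by 2-fold, and 51.9% had a log2 ratio above 0. The 17 small nucleolar RNA rows had a median of 0.72. One of them, Gm24899, lies inside Gm26945 and had 53 and 23 counts. Several rows overlap in their spans, so they are not independent of each other. Rtl1, the nearest protein-coding gene, had 0 and 1 counts. Without the 2 members of this interval the median log2 ratio of the set was 0.06.

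**Figure D4:**
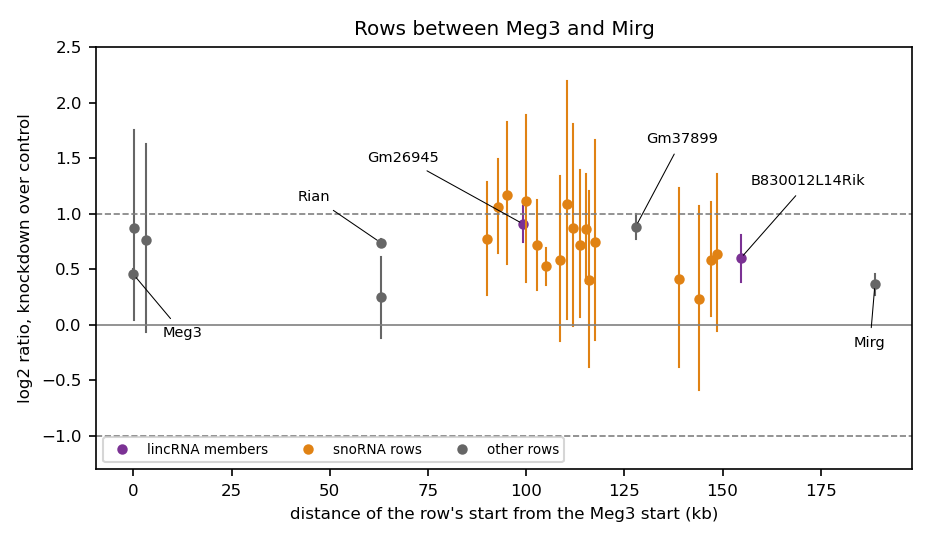
Log2 ratio of knockdown over control (y axis, with 95% counting intervals) for the 26 rows at 1 CPM or more from Meg3 to Mirg, placed by the distance of each row's start from the start of Meg3 (x axis, kilobases). All 26 points lie above 0, and the members Gm26945 and B830012L14Rik lie within the range of their neighbours.

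Apart from that domain, 3 members were higher by 1.5-fold. Gm19705 (ENSMUSG00000097113, chromosome 1, 136670769 to 136690804, plus strand) had 372 knockdown and 203 control counts, a 1.72-fold higher level (1.45 to 2.06). 1810058I24Rik (ENSMUSG00000073155, chromosome 6, 35252654 to 35263496, plus strand) had 774 and 446 counts and was 1.63-fold higher (1.45 to 1.84). It is a lincRNA in vM21 but protein-coding in RefSeq, and its product is known as a small mitochondrial peptide. 4930461G14Rik (ENSMUSG00000097651, chromosome 9, 58455122 to 58469635, plus strand) had 405 and 235 counts and was 1.62-fold higher (1.38 to 1.91). The counting intervals of Gm26945 and Gm19705 reached 2-fold on the higher side and that of Xist on the lower side. For the other 39 members they did not.

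Neat1 and Malat1, neighbours on chromosome 19 and both abundant nuclear RNAs, differed from each other in their ratios. Neat1 (ENSMUSG00000092274, 5824708 to 5845478, minus strand), the scaffold of paraspeckles, had 9249 counts in the knockdown against 5814 in the control. At 361.0 against 241.1 CPM it was 1.497-fold higher (1.45 to 1.55), a log2 ratio of 0.58 that fell just short of the 1.5-fold line. It passed that line with DESeq2 size factors (0.62), TMM over protein-coding genes (0.60) and centring by length (0.61). Malat1 (ENSMUSG00000092341, 5795690 to 5802672, minus strand), which is concentrated in nuclear speckles, had 123204 and 115544 counts, or 4809 and 4791 CPM. Its ratio was 1.00 (0.996 to 1.01). The sign of so small a difference depended on the scaling, and with total counts Malat1 had a log2 ratio of -0.11 and Neat1 one of 0.46. Of the 9 paraspeckle proteins on the list 8 differed by less than 2-fold, among them Sfpq (6977 and 6589 counts) and Nono (10273 and 8736), which bind Neat1. The exception was Pspc1, also a core paraspeckle protein, with 754 and 1471 counts (2.07-fold lower, 1.90 to 2.27). The 5 nuclear speckle genes, such as Son and Srrm2, had a median log2 ratio of -0.19, and none differed by 2-fold. On the whole list of 12 nuclear and chromatin RNAs, 8 rows reached 1 CPM. At that minimum 14.2% of all 15850 rows differed by 2-fold, 4.68% higher and 9.48% lower, and counts on the lists of RNAs stand beside those shares. For the listed proteins the share is 4.01%, that of protein-coding rows with at least 200 counts in both libraries. Of the 8 RNA rows, Gm28373 was higher by 2-fold (284 and 119 counts), and Airn (21 and 57) and Miat were lower. Kcnq1ot1 (14437 and 9503 counts, log2 ratio 0.52) and Tug1 (3232 and 2765, 0.14) were among those that did not reach 2-fold.

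The 3 members at the ribosomal DNA went different ways. AY036118 (ENSMUSG00000105361, chromosome 17, 39847113 to 39848035, minus strand) had 1299790 knockdown and 898898 control counts, which was 1.361-fold higher (1.357 to 1.365). Its 923 exon bases lie entirely within the ribosomal RNA row CT010467.1, on the same strand, and that row had 1751106 and 1220238 counts (1.35-fold higher). Gm42418 (39846958 to 39848788, plus strand), which shares 1822 of its 1831 exon bases with that row on the other strand, had 41035 and 39261 counts and a log2 ratio of -0.02, or 0.02 with DESeq2 size factors. Gm26917 (39843013 to 39846341, plus strand) ends just before the ribosomal RNA row and shares no base with it. It had 177608 and 229668 counts and was 1.37-fold lower (1.37 to 1.38). Its longest transcript has a GC content of 69.12%, the highest of the members. For AY036118, on the same strand as the ribosomal RNA row, reads of ribosomal RNA and of a lincRNA cannot be told apart. Gm42418, on the other strand, had far fewer counts than that row, and any part of ribosomal RNA in them was not tested. Without the 3 rows the set's median log2 ratio was 0.12, and still no member reached 2-fold.

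**Figure D5:**
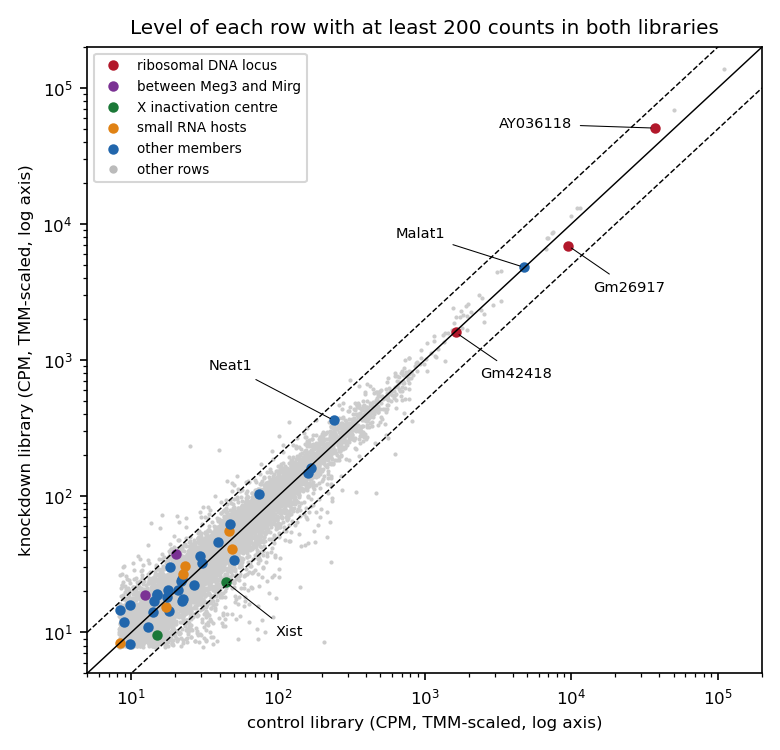
TMM-scaled CPM of each row with at least 200 counts in both libraries, control on the x axis and knockdown on the y axis (both log axes), with the 42 members coloured by locus or role and the other rows in grey. The solid line marks equal levels and the dashed lines 2-fold; all members lie between the dashed lines, from about 8 CPM up to AY036118 at 50732 CPM in the knockdown library.

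Hosts of small nucleolar RNAs carry these guides of RNA modification in their introns. Snhg12 (ENSMUSG00000086290) had 1057 counts in the knockdown against 1177 in the control (log2 ratio -0.24), Epb41l4aos 393 and 418 (-0.18), Snhg20 216 and 202 (0.01) and Snhg6 687 and 542 (0.25). Snhg12 lay a little below and Snhg6 a little above no change, each with an interval that excludes it, and the other pair did not differ beyond counting error. On the list of 20 rows, which also holds Rmrp and Cbr3, 19 reached 1 CPM. None was higher by 2-fold, 1 was lower (Snhg18, 21 and 66 counts) and the median log2 ratio was -0.13. The abundant Gas5 (3757 and 3533 counts) and Snhg1 (3937 and 3682), which are processed transcripts in vM21 and so no members, had log2 ratios of 0.00 and 0.01. The 5 small nucleolar RNA rows inside Snhg12 summed to 177 and 229 counts, with Snora61 at 80 and 121. Of the 5, 2 are rows of Snora16a over nearly the same bases, each with 13 and 14 counts, so that stretch enters the sum by both rows. Snord87 inside Snhg6 had 43 and 40 counts. Reads of such a short row and of the host's unspliced precursor cannot be told apart.

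Mir17hg (ENSMUSG00000089726, chromosome 14, 115042879 to 115046727, plus strand), the precursor of the miR-17 to miR-92a cluster that is highly expressed in embryonic stem cells, had 1423 knockdown and 1125 control counts. It was 1.19-fold higher (1.10 to 1.29). The chief mature microRNAs of this host are shown because their seeds, bases 2 to 8 in capitals, group them into families (RefSeq, GRCm38.p6).
mmu-miR-17-5p: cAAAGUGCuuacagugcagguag
mmu-miR-20a-5p: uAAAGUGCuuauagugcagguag
mmu-miR-18a-5p: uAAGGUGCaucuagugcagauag
mmu-miR-19a-3p: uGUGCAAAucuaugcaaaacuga
mmu-miR-19b-3p: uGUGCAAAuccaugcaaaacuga
mmu-miR-92a-3p: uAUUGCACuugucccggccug
miR-17-5p and miR-20a-5p share the seed AAAGUGC, and miR-19a-3p and miR-19b-3p share GUGCAAA, while miR-18a-5p and miR-92a-3p each have their own. The 6 hairpin rows within the host summed to 64 and 66 counts, of which Mir92-1 had 26 and 26, so mature microRNA levels were not measured here. 6720427I07Rik, the host of 3 let-7 hairpins, had 785 and 559 counts (1.32-fold higher, 1.18 to 1.48). Its hairpin rows Mirlet7d, Mirlet7f-1 and Mirlet7a-1 summed to 33 and 25 counts. Lin28a, which blocks the maturation of let-7, had 3625 and 6529 counts and was 1.91-fold lower (1.84 to 1.99). Ago2, which carries mature microRNAs, had 3315 and 4814 counts (log2 ratio -0.63), and Drosha and Dicer1, which cut the precursors, had log2 ratios of 0.07 and 0.01. None of these 4 reached 2-fold. On the list of 15 microRNA host rows 8 reached 1 CPM, none was higher by 2-fold, and 2 were lower at about 1 CPM or less (Mir9-3hg, 13 and 25 counts, and Mir142hg, 15 and 29).

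The 4 members on the cytoplasmic and stem cell lists differed by less than 1.5-fold. 1700020I14Rik, known as Cyrano or Oip5os1, which pairs with miR-7 and promotes its decay, had 2679 counts in the knockdown against 1786 in the control (1.41-fold higher, log2 interval 0.41 to 0.58). Pvt1, next to Myc, had 927 and 709 counts (log2 ratio 0.30), while Myc, which starts 52595 bp away, had 641 and 594 (0.02). 2900097C17Rik, known as Norad, a mainly cytoplasmic RNA that helps keep chromosomes stable, had 572 and 645 counts (log2 ratio -0.26). Its deposited length of 1149 bases is shorter than its 4915 exon bases in vM21, and its level per length depends on that. Lncenc1 (ENSMUSG00000078952, chromosome 13, 97434970 to 97497007, plus strand), a transcript that naive embryonic stem cells express strongly and that also bears the name Platr18, had 3769 and 3854 counts, 1.09-fold lower (1.04 to 1.14). It stayed in the set because its symbol does not start with Platr. Of the left-out Platr rows with enough counts, Platr10 had 1467 and 2344 counts (log2 ratio -0.76) and Platr4 471 and 363 (0.29). On the stem cell list 6 of 8 rows reached 1 CPM, and Halr1 was higher by 2-fold with none lower. On the mixed list that holds the cytoplasmic RNAs, 10 of 11 rows reached 1 CPM, Bvht (87 and 36 counts) was higher and Dnm3os (64 and 178) and Carmn (12 and 25) were lower.

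Across all the partner proteins listed for these RNAs, which also cover nonsense-mediated decay and the nuclear exosome, 48 of 48 reached 1 CPM. None was higher by 2-fold, Pspc1 was lower and 47 did not reach 2-fold, with a median log2 ratio of 0.04. All 48 also had at least 200 counts in both libraries. Of the 8408 protein-coding rows with such counts 4.01% differed by 2-fold, 101 higher and 236 lower. Largest on the higher side was Upf3b, of the nonsense-mediated decay pathway, with 1826 and 1099 counts (log2 ratio 0.65). Upf2 of the same pathway had 1944 and 1298 (0.50), and Zfc3h1, which hands nuclear RNAs to the exosome, had 2721 and 1844 (0.47).

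Of the remaining members, several are little studied. AU020206 had 872 knockdown and 1201 control counts and was 1.46-fold lower (1.34 to 1.60), the lowest ratio after Xist and Ftx. 5430416N02Rik had 1607 and 1137 counts (1.33-fold higher, 1.23 to 1.44) and 5031425E22Rik 307 and 216 (1.34-fold higher, 1.12 to 1.60). Gm20342, BC002059, EU599041 and D930016D06Rik had log2 ratios from 0.24 to 0.37, and Tmem250-ps, Gm7292, Gm10076, Gm20939 and Gm20707 from -0.38 to -0.24. The log2 ratios of Gm43055 (0.19), Gdap10 (0.14), Gm26853 (0.12), 1700001L05Rik (0.07), 4933404O12Rik (0.05), Gm21781 (0.00) and Gm37494 (-0.01) lay nearer to 0. Of Gm43055, 631 of 879 exon bases coincide with the coding gene Ythdc1 on the same strand, which had 3545 and 3167 counts (0.08), and its own 521 and 429 counts cannot be told apart from that gene's reads.

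RefSeq class, exon structure and base composition were not used by the rule. A RefSeq record was found for 30 of the 42, and it was a long noncoding RNA for 22, a protein-coding gene for 6 and a pseudogene for 2. The 6 were Tmem250-ps, Gm20939, Gm37494, D930016D06Rik, EU599041 and 1810058I24Rik. Exons of another gene overlapped 20 members, for 3 over more than 50% of the member's exon bases, and for 13 on the opposite strand. The median number of exons in the transcript with most exons was 3, beside 10 in the protein-coding rows. Median length of the longest transcript was 3044 bases, beside 3641, and its GC content 45.58%, beside 49.04%. There were 8 members with a single exon, with a median log2 ratio of -0.01, and 34 had several, with a median of 0.13. The 21 members with a GC content at or below the median had a median log2 ratio of 0.19, and the 21 above it one of 0.01. The same split by deposited length gave 0.01 at or below the median and 0.14 above it. By level per length it gave 0.12 and 0.07. Members were spread over 19 chromosomes.

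Neighbouring genes had ratios of mixed sign. The start of the nearest protein-coding gene lay within 5 kb for 6 members, and 3 of those pairs were divergent. Of the 6 pairs, 3 had log2 ratios of the same sign, but in 1 of these the member, Gm21781, was at 0.00 and changed sign with DESeq2 size factors, and 1 was Gm42743 and Hist2h2bb, whose reads cannot be told apart. 5031425E22Rik starts 172 bp from Kmt2e, a chromatin regulator on the other strand that had 861 and 927 counts (log2 ratio -0.19). Gm21781 and Zbtb2 start 3479 bp apart, and Zbtb2, a transcription factor, had 220 and 321 counts (-0.63) beside a member without a difference. Gdap10 and Nampt, an enzyme of NAD synthesis, start 2327 bp apart, and Nampt had 5865 and 4444 counts (0.31). Their spans overlap on the same strand, so reads of Gdap10 and of Nampt's unspliced precursor cannot be told apart. Over the 30 members whose neighbour reached 1 CPM, both ratios were above 0 in 12 pairs, both below 0 in 8 and opposite in 10. Across these 30 pairs, all measured in the same 2 libraries, Pearson's r was 0.05 and Spearman's rho 0.14, given as a description. Among the 30 neighbours, Tcf24 near Snhg6 was higher by 2-fold (88 and 39 counts), and Insyn1, 33481 bp from 4930461G14Rik, was lower (52 and 100) beside a member that was higher.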

How the data were processed

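RNA of 1 linc1557 knockdown and 1 control shRNA library was sequenced. The deposited table holds unnormalised counts of reads for each gene, with a gene length. The submitters' processing notes name Trim Galore, HISAT2, featureCounts and DESeq, and the builds mm10 and GRCm38. Tool versions, annotation release, strand setting and the rule for overlapping genes were not given in the sources used here. Of 46983 identifiers 46488 matched GENCODE vM21, which gave symbols, classes and GRCm38 coordinates.

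TMM factors (0.960 knockdown, 1.04 control) over all rows came from edgeR 4.0.16 in R 4.3.3. Ratios, exact 95% Clopper-Pearson intervals and figures came from Python 3.11.15 (numpy 2.4.6, pandas 2.3.3, scipy 1.17.1, matplotlib 3.10.9). A row counted as higher or lower when it differed by 2-fold and its interval excluded 1. Counts of 0 were set to a floor of 3 for ratios. No test across replicates was possible with 1 library per group. This rule for calling a row was also checked on simulated Poisson counts with planted fold changes. Such counts hold no variation between cultures or clones and no PCR copies. Named are the 8 highest members per length, members on the role lists, rows beside the count minimum and members past 1.5-fold, and further members were named after their values were seen. The members and lists were chosen with earlier results of these data known. Alternatives were DESeq2 1.42.0 size factors, total counts, TMM over nuclear protein-coding genes, a prior count of 2, centring in 10 bins by expression or length, other count minimums and fold thresholds, and leaving out overlapping members or chromosome 14. The repeat content of the transcripts was not computed, and 1 listed gene is not reported here.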

Additional observations from a re-analysis of the deposited data

How the results depend on the processing

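The count of 0 members past 2-fold was also 0 with DESeq2 size factors, TMM over nuclear protein-coding genes, a prior count of 2, centring by expression or length, a minimum of 400 counts, a threshold of 4-fold, overlapping members left out and chromosome 14 left out. It was 0 as well in 3 alternatives chosen after seeing the data, namely TMM without the ribosomal DNA rows, those 3 members left out, and the 2 members between Meg3 and Mirg left out. Scaling by total counts, which moved the median of all genes by -0.12 on the log2 scale, gave 1 (Xist, log2 ratio -1.02). A minimum of 100 counts gave 2 of 66 rows, both higher, and no count minimum gave 109 of 648 rows (78 higher, 31 lower) with a median log2 ratio of 0.33. The share of all rows in these settings was not computed, so nothing is read from these counts. The 1.5-fold threshold gave 7, and its count under other scalings was likewise added after seeing the data. Among all rows with 200 counts in both libraries the share was 14.6% at 1.5-fold and 0.255% at 4-fold. The members' median ran from -0.02 (total counts) to 0.21 (minimum of 100 counts) in the other settings. Signs changed for 4 members with total counts, for 3 with DESeq2 size factors, for 3 with centring by length, for 2 with TMM over protein-coding genes and for 1 with centring by expression, all of them with small ratios. No paired analysis was possible because each group had 1 library. For the same reason no library could be left out. Depth limits the smaller members: 28 of 42 had under 1000 counts in both libraries, and the widest interval had an upper bound 1.48 times its lower bound.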

Other observations

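LincRNAs below the count minimum included rows past 2-fold in both directions. Of 3401 lincRNA rows 2081 had 0 counts in both libraries and 236 reached 1 CPM in either. Of these 236, 189 had under 200 counts in a library, and 48 of the 189 were higher and 16 lower by 2-fold in the knockdown (33.9%), with a median log2 ratio of 0.49. Over all 236 rows the share was 27.5% (48 higher, 17 lower) and the median 0.38. Among all 15850 rows at the same minimum of 1 CPM the share was 14.2% (742 higher, 1503 lower) and the median 0.02. Those 15850 include the 9012 rows with 200 counts in both libraries, of which 3.88% were past 2-fold. They stand beside the 236 and are no match for the 189. Requiring 50 counts in both libraries left 117 rows, of which 5 were higher and 3 lower. At 100 counts 2 of 75 were higher and 1 lower, and at 1000 counts none of 14 was called. The share of all rows at 50, 100 or 1000 counts was not computed, so these counts have no background beside them. A minimum of 1 CPM in either library admits rows that are high in 1 library, so these shares depend on the minimum.

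Other noncoding classes with at least 200 counts in both libraries can be set beside the lincRNAs. The 40 processed transcripts had a median log2 ratio of -0.04 and 1 was higher by 2-fold. The 37 small nucleolar RNAs had a median of -0.05 with none past 2-fold. The 8 antisense transcripts had a median of 0.26 and the 30 unconfirmed (TEC) transcripts one of 0.23, again with none past 2-fold. The 291 processed pseudogenes had a median of -0.05, with none higher and 6 lower by 2-fold. Among all 9012 rows with these counts 3.88% were past 2-fold. All 8 antisense transcripts had a log2 ratio above 0, the lowest 0.07, and 7 of 8 did with total counts. With TMM the share above 0 was 55.2% of all 9012 rows, 73.3% of the TEC transcripts and 42.5% of the processed transcripts. It was 41.6% of the processed pseudogenes and 37.8% of the small nucleolar RNAs.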
